A study of Mus musculus with 11 samples.

Results

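The libraries described here are the 6 made from muscle stem cells (MuSCs) treated with prostaglandin E2 (PGE2), 3 from aged and 3 from young mice, out of 11 libraries in the count table. They were chosen by their column names: 3 aged PGE2 columns, numbered 1 to 3, and 3 young PGE2 columns, of which 1 carries number 2 while both others share a single name with number 1. Replicate a is the earlier and replicate b the later of these 2 same-named columns. The series holds libraries of MuSCs from old and young mice, with and without PGE2. The cells came from C57BL/6 mice and were sorted as CD45-, CD11b-, CD31- and Sca1- cells positive for alpha7 integrin and CD34. Young mice were 2 to 4 months old and aged mice 24 months old. All 6 libraries were made from cells cultured on hydrogels for 24 h and given PGE2 at 10 ng/ml for 24 h. Between 5000 and 10000 cells gave the RNA of a library, which was amplified before sequencing. The other 5 libraries, 3 young and 2 aged, had no PGE2. The labels do not say whether replicates were separate animals, so a p-value here measures the spread between libraries only.

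PGE2 is a lipid signal made from arachidonic acid by cyclooxygenases and released in injured muscle during inflammation. It acts through the EP receptors, of which EP2 and EP4, the products of Ptger2 and Ptger4, couple to adenylyl cyclase and raise cyclic AMP. Cyclic AMP activates protein kinase A, which phosphorylates the transcription factor CREB and turns on early response genes such as the Nr4a nuclear receptors. In muscle, EP4 signaling is known to promote expansion of MuSCs.

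The total count was 1084967, 3641959 and 693358 in young PGE2 replicates 2, a and b and 3216801, 1760139 and 2437713 in aged PGE2 replicates 1, 2 and 3. The deepest and both of the shallowest libraries were young, so depth overlapped between the ages. A floor of 3 counts stood at 2.77, 0.824 and 4.33 CPM (counts scaled to a library of 1000000) in the young libraries and at 0.933, 1.7 and 1.23 in the aged ones. Floors and intervals cover counting error only, since amplified reads are not independent molecules. Genes with at least 1 count numbered 15446, 16330 and 14414 in the young libraries and 13139, 13330 and 13278 in the aged ones. Brought to the depth of the shallowest library by calculation, the expected numbers were 14442, 13067 and 14414 against 11557, 12101 and 11850. Every young PGE2 library thus held more detected genes than every aged PGE2 library, also at equal depth, with an exact two-sided permutation p of 0.1 (0.267 adjusted over 8 library measures). That is the smallest p that 3 libraries against 3 can give.

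Olfactory receptor genes, which MuSCs are not known to use, served as a measure of background. Their summed share was 1209, 340.2 and 1220 CPM in young PGE2 replicates 2, a and b and 152, 161 and 309.7 CPM in aged PGE2 replicates 1 to 3. The groups did not overlap, although young replicate a lay close to aged replicate 3 (log2 difference, aged minus young, -2.02; exact permutation p = 0.1, the smallest possible; 0.267 adjusted over the 8 measures). Vomeronasal receptor genes gave 151, 42.3 and 151 CPM against 24.6, 37.5 and 45.5 CPM, with young replicate a inside the aged range. Among untreated libraries the olfactory share ran from 22.6 to 729 CPM, with an aged library at each end. The part that background and detected gene number took in the differences described here was not tested apart from the covariate fit given further on.

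**Figure D1:**
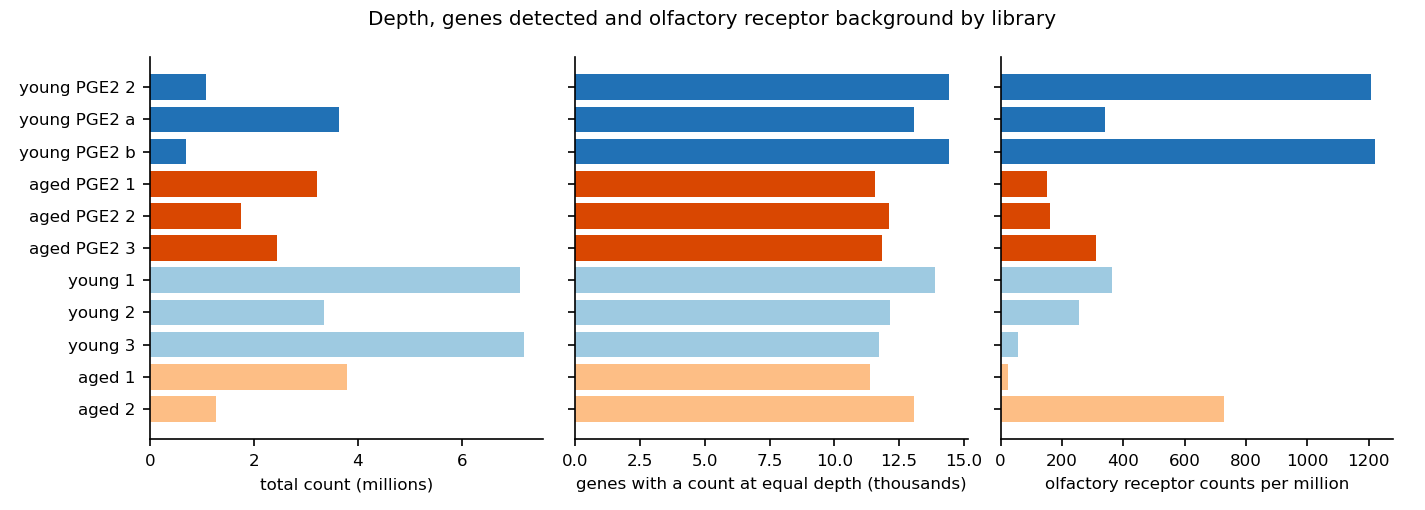
Total count, number of genes with a count at the depth of the shallowest library, and summed olfactory receptor CPM in each of the 11 libraries, 1 bar a library, starting at 0. The 3 young PGE2 libraries have more detected genes (13067 to 14442) than the 3 aged PGE2 libraries (11557 to 12101), and a higher olfactory share.

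Within each age, pairs of libraries differed by 14 to 22.2 times what counting noise gives (chi-square over its degrees of freedom), so none was a copy of another. Over 9630 genes the correlation of log2(CPM + 1) was 0.807 to 0.916 between young PGE2 libraries, 0.861 to 0.875 between aged PGE2 libraries and 0.795 to 0.911 between the ages. Young replicate b, the shallowest, gave the lowest values, 0.795 to 0.822 against the 5 other libraries. Y-linked reads (Uty, Kdm5d, Ddx3y and Eif2s3y) were found in young replicate b (107 CPM) and aged replicate 3 (56.2 CPM) and were at 0 in the other 4 libraries. Each age thus held 1 library with male reads. Mitochondrial genes took 5.33 to 11.4% of young and 5.44 to 10.1% of aged counts.

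Markers of MuSCs were present in all 6 libraries. Pax7, the transcription factor that defines these cells, stood at 327, 278 and 167 CPM in young replicates 2, a and b and at 266, 291 and 228 CPM in aged replicates 1 to 3. Itga7 and Cd34, whose products were used in the sort, were counted in every library, Itga7 at 60.4, 49.6 and 84.2 against 53.6, 38.9 and 106 CPM and Cd34 at 24.7, 36.2 and 69.4 against 100.4, 37.2 and 142 CPM. Both genes overlapped between ages. Of the 10 MuSC markers 9 passed the filter on low counts, and the sum over all 10 was 1377, 1024 and 1188 CPM in young and 1380, 1111 and 1375 CPM in aged libraries. Myog, which marks differentiating myocytes, had 1, 0 and 0 counts in young and 1, 0 and 0 in aged libraries.

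Markers of blood and endothelial cells failed the filter on low counts, though some stood above the floor in 1 or more libraries. The 10 lymphocyte markers summed to 10.9, 4.38 and 23.6 CPM in young and 0.31, 0.573 and 0.812 CPM in aged libraries, with Cd4 the most abundant and Cd8a, Cd79b, Ms4a1 and Nkg7 at 0 in all 6. The 15 myeloid markers summed to 16.8, 4.11 and 32.5 against 7.13, 2.29 and 5.69 CPM, led by Itgam, with C1qa, C1qb, Tyrobp, Fcer1g and S100a9 at 0. Every young sum exceeded every aged sum for lymphocyte markers, and all but that of replicate a did for myeloid markers. Their part in the age differences was not tested. The 11 endothelial markers gave 28.7, 13.7 and 85.7 against 31.3, 8.02 and 19.1 CPM, led by Vwf, with Cldn5 at 0. In young replicate b, Vwf stood at 42.8 CPM and Pecam1 at 22.2 CPM, above that library's floor of 4.33 CPM, and Egfl7 stood at 16.7 CPM in aged replicate 1 and above the floor in all libraries but young replicate 2. Erythroid markers stayed at or under 2.95 CPM, with Hba-a1, Hba-a2 and Hbb-bt at 0.

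The 12 fibroadipogenic markers summed to 143, 155 and 114 CPM in young and 116, 120.3 and 108 CPM in aged libraries. Most of it came from Col3a1, the only member that passed the filter, and Lum was at 0. Ly6a, which encodes the Sca1 antigen that the sort selected against, had 39 counts in aged replicate 1 and 0 in the other 5 libraries. Dcn, the fibroblast proteoglycan decorin, had 0, 2 and 0 counts in young and 6, 6 and 32 counts in aged libraries, higher in every aged library but below the filter. Mfap5, also below the filter, went the other way, with 2, 2 and 1 counts in young and 0, 0 and 0 in aged libraries. Tenocyte markers summed to 32.7, 24.7 and 29.5 against 23.2, 24.1 and 28.8 CPM, led by Scx, with Tnmd at 0. Schwann cell markers, led by Pmp22, gave 45.5, 27.7 and 79.8 against 26.6, 55.6 and 34.5 CPM and none was at 0 throughout. Mature myofiber markers, led by Actn3, gave 25.7, 13.4 and 51.7 against 14.9, 32.6 and 7.31 CPM, with Myh4, Ckm and Myoz1 at 0. These sums overlapped between the ages.

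Pericyte and smooth muscle markers summed to 50.5, 36.2 and 68 CPM in young and 99.4, 67.6 and 138 CPM in aged libraries, overlapping by a narrow margin. Acta2, smooth muscle actin, was the most abundant and stood at 13.9, 11.8 and 36.9 CPM in young and 59.5, 51.5 and 73.9 CPM in aged libraries. Every aged library was higher, by a log2 fold change (aged over young) of 1.65 ± 0.48 (SE), but edgeR's quasi-likelihood test gave a p, adjusted over all genes tested, of 0.72. The pericyte genes Rgs5, Pdgfrb and Abcc9 were at 0 in the aged libraries and Cnn1 at 0 in all. In bulk RNA, more cells of a type and more RNA per cell cannot be told apart.

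Across the genome, no gene passed an adjusted p of 0.05 between aged and young PGE2 cells in edgeR's quasi-likelihood test: 0 of 9630 genes (0%) with enough counts. At an unadjusted p under 0.05 there were 521 genes (5.41%), a share close to that threshold itself, with 229 higher and 292 lower in aged cells. DESeq2 on the same genes called 13 of 9626 (0.135%), 1 higher and 12 lower in aged cells, and limma with sample quality weights called 0. Genes whose groups did not overlap numbered 522 with every aged library higher (5.42%) and 556 with every aged library lower (5.77%). Full separation of 3 libraries against 3 has an exact two-sided permutation p of 0.1. Separate groups of a gene are thus a description here and do not by themselves show an age difference. The median log2 fold change over all genes tested was 0.01. The biological coefficient of variation was 0.433.

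**Figure D2:**
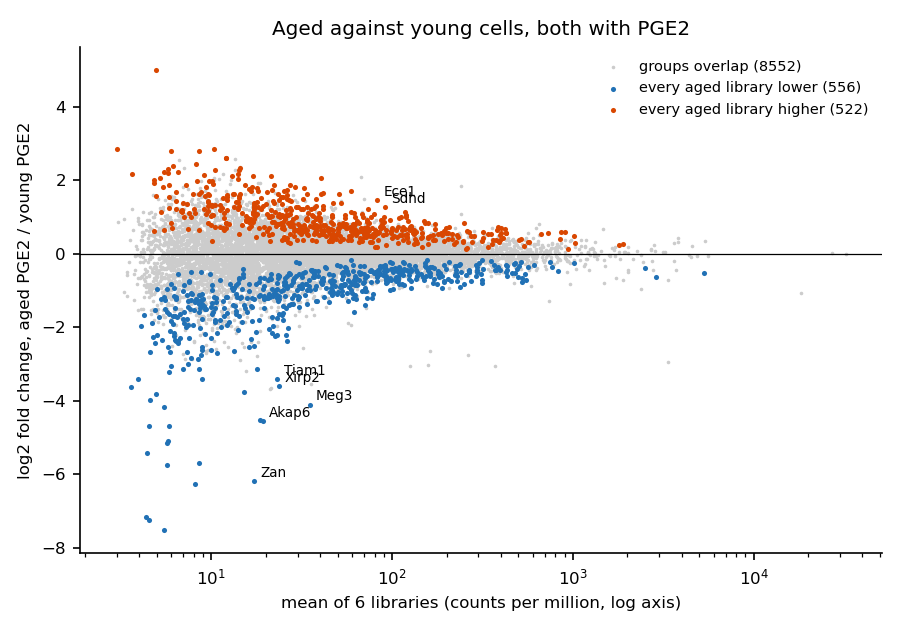
Log2 fold change of aged over young PGE2 cells for 9630 genes against mean CPM on a log axis. Orange and blue points are the 522 and 556 genes whose groups do not overlap; the lowest fold changes lie among genes of low level.

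Among the genes higher in aged cells, Ece1, which encodes an endothelin-converting enzyme, stood at 41.6, 51 and 38.4 CPM in young replicates 2, a and b and at 156, 91.6 and 116 CPM in aged replicates 1 to 3. The gene lies at chr4:137862237-137965229 (GRCm38). The ages were fully separate, with a log2 fold change of 1.46 ± 0.33 and an adjusted p of 0.433 in edgeR and 0.0365 in DESeq2. Sdhd, a membrane anchor of succinate dehydrogenase in the respiratory chain, was at 49.5, 48.8 and 62.1 against 113, 119 and 156 CPM. All aged libraries were higher, at 129 ± 23.1 against 53.4 ± 7.47 CPM (mean ± SD, n = 3 each), with an edgeR adjusted p of 0.479. Crlf3, a cytokine receptor-like factor, had 9.9, 11.8 and 13.3 CPM in young and 45.2, 34.4 and 47.9 CPM in aged cells, again without overlap (1.87 ± 0.49, edgeR adjusted p = 0.512).

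Fosl2 encodes an AP-1 subunit that responds to cyclic AMP and growth factors. It was at 67.3, 76.2 and 88.6 CPM in young and 169, 137 and 177 CPM in aged libraries, all aged values being higher (1.06 ± 0.28, edgeR adjusted p = 0.512). Pde1a, a calcium-dependent phosphodiesterase that degrades cyclic nucleotides, was at 9.9, 12.3 and 16.3 against 26.3, 72.2 and 37.8 CPM, with aged replicate 2 the highest. Mettl9, a methyltransferase, was at 10.9, 18.9 and 13.3 against 66, 37.2 and 48.7 CPM. The Rab5 regulator Rin2 was at 5.94, 10.1 and 7.39 against 53, 33.2 and 19.1 CPM, and the sialic acid transporter Slc35a1 at 54.4, 40.5 and 36.9 against 86.1, 76.2 and 147 CPM. These 4 genes had log2 fold changes of 1.23 to 2.12 and edgeR adjusted p of 0.512 to 0.72. D17H6S53E had 0, 0 and 1 counts in young and 41, 9 and 25 in aged libraries, an aged to young ratio over pooled libraries of 53.8 (95% counting interval 9.37 to 2154), and overlaps an exon of Gm20522. It passed the filter only through the aged group, where it is high, so its direction is not read.

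The genes lower in aged cells reached larger ratios at lower levels. Tiam1, an activator of the GTPase Rac at chr16:89787111-90143769, stood at 51.5, 47.4 and 28.1 CPM in young replicates 2, a and b and at 1.55, 6.3 and 4.47 CPM in aged replicates 1 to 3. The highest aged value lay well below the lowest young one, and the log2 fold change was -3.41 ± 0.64, with an adjusted p of 0.222 in edgeR and 2.10e-04 in DESeq2. Meg3, an imprinted long non-coding RNA at chr12:109541001-109571726, was at 32.7, 14.8 and 151 against 3.41, 4.01 and 3.66 CPM. The aged libraries were alike at 3.69 ± 0.302 CPM (mean ± SD, n = 3), while young replicate b was far above the other young libraries (-4.10 ± 0.76; adjusted p 0.222 in edgeR, 1.03e-04 in DESeq2). Without young replicate b the log2 fold change of Meg3 was -2.65. Neither Tiam1 nor Meg3 reached the filter's level in all 3 aged libraries. Both passed through the young group, where they are high, so their direction is not read. Counts of Meg3 may include reads of the overlapping genes Gm26906, Gm27300, Mir1906-1 and Mir770.

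Zan, which encodes the sperm protein zonadhesin, had 57, 20 and 27 counts in young and 1, 0 and 2 counts in aged libraries. Over pooled libraries the young to aged ratio was 48.3 (95% counting interval 16.1 to 238), with an adjusted p of 0.222 in edgeR and 1.73e-04 in DESeq2. The exons of Zan overlap those of Ephb4. Zan passed the filter only through the young group, where it is high, so its direction is not read. Akap6, an anchor for protein kinase A in muscle, was at 7.92, 19.2 and 84.2 CPM in young and 1.55, 1.72 and 1.22 CPM in aged libraries, and Xirp2, an actin-binding protein of muscle, at 88.1, 20.5 and 22.2 against 5.58, 4.58 and 0.406 CPM. In both, 1 young library (b for Akap6, 2 for Xirp2) was over 4-fold above the lowest young library. The log2 fold change of Akap6 was -4.55 with all libraries and -3.16 without young replicate b. For Xirp2 it was -3.59, and -4.18 to -2.56 under the alternatives. DESeq2 gave adjusted p of 3.28e-04 and 0.00618, and edgeR 0.299 and 0.433. Akap6 and Xirp2 likewise passed the filter through the young group, where they are high, so their direction is not read. Over the alternatives run, the smallest and largest adjusted p were 2.10e-04 and 1 for Tiam1, 5.14e-08 and 1 for Meg3, 1.60e-06 and 1 for Zan, 9.48e-05 and 1 for Akap6, 2.45e-04 and 1 for Xirp2 and 0.0209 and 1 for Ece1.

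Btn1a1, a milk fat protein, and Dnah3, an axonemal dynein, were at 0 counts in all 3 aged libraries. Btn1a1 had 12, 18 and 7 counts in the young libraries, a pooled level 17.2 times a floor of 3 counts over the aged group. Dnah3 had 6, 19 and 10 counts in the young libraries, a pooled level 16.3 times that floor. Atp6v1g2, a subunit of the vacuolar proton pump, had 6, 25 and 14 against 0, 1 and 0 counts, and the interferon-activated gene Ifi203 15, 20 and 9 against 2, 0 and 0. Their young to aged ratios over pooled libraries were 62.7 (95% counting interval 10.7 to 2530) and 30.6 (95% counting interval 8 to 261). Btn1a1, Dnah3, Atp6v1g2 and Ifi203 passed the filter only through the young group, where they are high, so their direction is not read. Dnah3, Atp6v1g2 and Ifi203 share exonic bases with Lyrm1, Nfkbil1 and Mndal.

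Arhgef5 was the leading lower gene of moderate level. It was at 96, 73.7 and 109 CPM in young and 42.1, 18.3 and 32.1 CPM in aged libraries. The ages were separate, at 93 ± 18 against 30.8 ± 11.9 CPM (mean ± SD, n = 3 each; -1.57 ± 0.39; edgeR adjusted p = 0.479).

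The 13 genes called by DESeq2 were Ece1, higher in aged cells, and Meg3, Zan, Tiam1, Akap6, Xirp2, Btn1a1, Dnah3, Wwox, Zfp287, Gm26849, Gm11492 and Gm5592, all lower. Wwox, an oxidoreductase gene that spans a fragile site, was at 66.3, 10.7 and 7.39 CPM in young and 0.62, 2.86 and 2.84 CPM in aged libraries. The zinc finger gene Zfp287 was at 30.7, 12.9 and 53.2 against 3.1, 1.15 and 6.09 CPM. Both were separate between the ages. Of the 12 lower genes, 6 had their highest level in young replicate b and 6 in young replicate 2, and none in young replicate a. None of the 12 lower genes reached the filter's level in all 3 aged libraries. All passed through the young group, where they are high, so their direction is not read. Wwox, Zfp287 and the predicted genes were named after their values were seen.

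**Figure D3:**
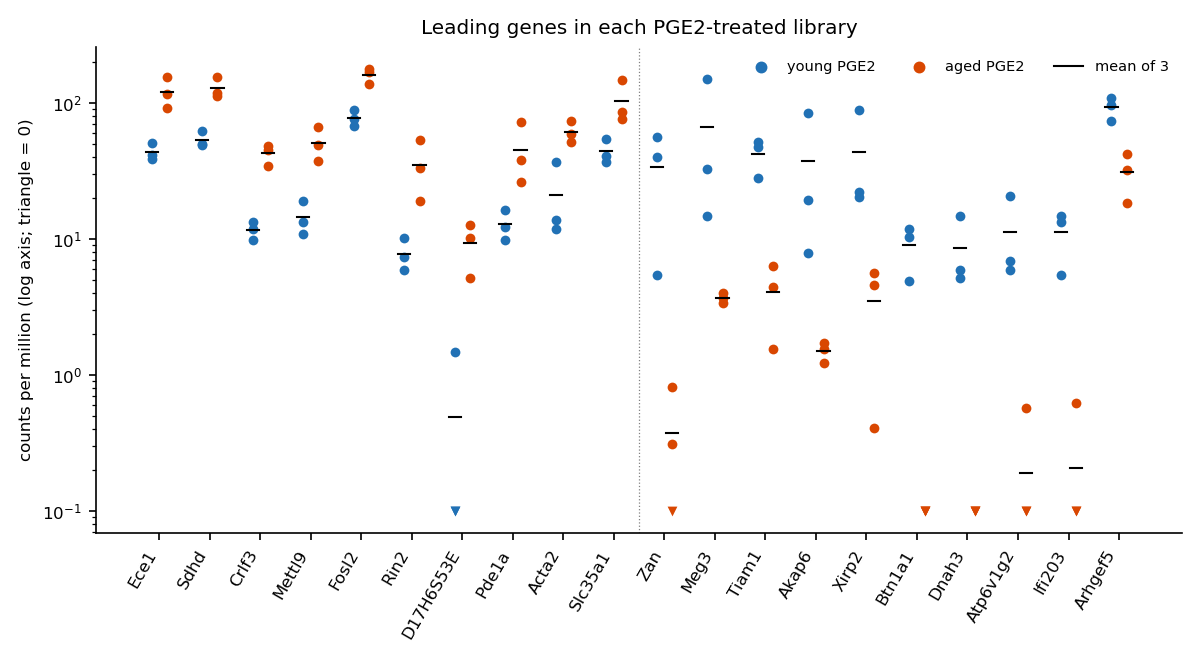
CPM on a log axis of the 10 leading genes higher (left) and 10 lower (right) in aged PGE2 cells, 1 point a library, black bars the mean of 3 libraries where above 0 and triangles a count of 0. The genes were picked for separate groups; the levels of the lower genes reach 0 in aged cells, as for Btn1a1 and Dnah3.

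What was called varied with the young libraries. Without young replicate a, edgeR called 7 genes, all lower in aged cells: Meg3, Zan, F5, Muc6, Gm42418, Igfn1 and Olfr263. Of these, Meg3, Zan, F5, Igfn1 and Olfr263 passed the filter only through the young group, where they are high, so their direction is not read. With all 6 libraries F5, Igfn1 and Olfr263 did not pass the filter. Muc6, a secreted mucin, was at 413, 83.6 and 889 CPM in young and 113, 14.3 and 74.7 CPM in aged libraries, so that young replicate a lay among the aged values. Without young replicate b, edgeR called 5 genes, again all lower: Gm10801, Gm10800, Gm21738, Gm10717 and Gm26870. Gm10800 was at 14950, 2358 and 533 CPM in young and 509, 971 and 862 CPM in aged libraries, and Gm10801 at 1658, 278 and 48.8 against 51.1, 84.2 and 103 CPM. In all 5 of these predicted genes young replicate 2 was highest and young replicate b lay within or below the aged range. Apart from Meg3 and Zan, these genes were named after their values were seen.

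In all 6 libraries, an edgeR fit with the log olfactory share as a covariate called 0 genes, and at an unadjusted p under 0.05 it gave 125 higher and 48 lower genes in place of 229 and 292. Because that share itself separated the ages, the covariate and age cannot be told apart with these libraries. With the covariate the log2 fold change was 1.12 for Ece1, -3.49 for Tiam1, -1.31 for Meg3 and -2.48 for Zan, beside 1.46, -3.41, -4.10 and -6.19 without it. The direction of Tiam1, Meg3 and Zan is not read, for the reason given above. With the presence of Y-linked reads as a covariate edgeR called 0 genes, with 577 at an unadjusted p under 0.05.

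Genes lower in every aged library were a larger share of long genes than of short ones, while level made less difference to the share. When the genes were split into 4 equal bins by mean CPM, the share lower in every aged library was 6.73%, 5.23%, 4.86% and 6.27% from the lowest bin to the highest, and the share higher was 4.49%, 5.9%, 6.11% and 5.19%. Fitted differences were widest at low level (interquartile range 1.18 in the lowest bin and 0.40 in the highest), and 53 of the 72 lower genes with a fitted difference above 4-fold lay in the lowest bin (3 to 15 CPM) and 0 in the upper 2 bins. Of the 26 higher genes beyond 4-fold, 23 lay in the lowest bin. By genomic span, the share of genes lower in every aged library was 3.3% in the shortest bin (up to 11.4 kb), 4.64% and 5.94% in the middle bins and 9.28% in the longest (over 61.1 kb). The share higher in every aged library was 6.23%, 6.69%, 4.77% and 4.1% in the same order. The median span was 42.5 kb for the lower genes, 20.1 kb for the higher genes and 26.8 kb for all genes tested. Of the lower genes, 44.2% had their highest young value in replicate b and 19.6% in replicate a, against 38.8% and 31% over all genes tested. The part of gene length in these differences was not tested.

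Of the receptors for PGE2, Ptger4 passed the filter, and values are given here for 3 of the 4 receptor genes. EP4 transcripts were at 26.7, 28.5 and 7.39 CPM in young replicates 2, a and b and at 30.1, 56.7 and 18.3 CPM in aged replicates 1 to 3. The ages overlapped (0.69 ± 0.57, edgeR adjusted p = 0.976). In the 6 PGE2 libraries Ptger3 had no count, and Ptger2 had 2 counts, both in aged replicate 2. Per kb of exon, the mean level over the 6 libraries was 4.2 CPM for Ptger4 and 0.0368 for Ptger2.

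Ptgs2, the inducible cyclooxygenase, had 4, 2 and 0 counts in young and 24, 8 and 1 in aged libraries. Hpgd, which inactivates PGE2, had 2 counts, both in young replicate 2. Pla2g4a, the phospholipase that releases arachidonic acid, was at 8.91, 4.93 and 2.95 CPM in young and 2.48, 2.86 and 0.812 CPM in aged libraries, each aged value being lower. None of these 3 genes passed the filter. Of the 14 genes for PGE2 receptors, synthesis, transport and clearance, 7 were tested, all 7 with a higher fitted mean in aged cells under TMM scaling. None was called. Their median log2 fold change was 0.46 beside 0.01 over all genes tested, and 1 of them (14.3%, beside 5.42% of all genes tested), the prostaglandin E synthase Ptges3, was higher in every aged library, at 288, 251 and 260.3 against 161, 199 and 222 CPM in young ones. Members of lists that are given from here on for their separate groups, with no adjusted p beside them, were picked after their values were seen.

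For cyclic AMP signaling, 28 of 31 genes were tested, 16 higher and 12 lower in aged cells, with a median of 0.04 beside 0.01 for all genes. Of these, 4 lay higher (14.3%) and 1 lower (3.57%) in every aged library, beside 5.42% and 5.77% of all genes tested, and none was called. Prkaca, the catalytic subunit of protein kinase A, was at 37.6, 58.1 and 39.9 CPM in young and 122, 64.2 and 90.2 CPM in aged libraries. All aged values were higher (1.01 ± 0.36, edgeR adjusted p = 0.784). Gnas, which encodes the stimulatory G protein alpha subunit, was at 634, 494 and 295 against 870.2, 601 and 854 CPM, with young replicate 2 inside the aged range. The adenylyl cyclase Adcy3 was at 0, 8.77 and 10.3 against 31.6, 12 and 39.8 CPM, without overlap (2.11 ± 0.83, edgeR adjusted p = 0.867); its exons overlap Cenpo. Creb1, the transcription factor itself, was at 99, 127 and 68 against 148, 136 and 145 CPM and Prkar1a, a regulatory subunit of protein kinase A, at 309.8, 326 and 399 against 447, 400.4 and 450.0 CPM, both higher in every aged library. The cyclase Adcy9 was the member lower in every aged library, at 9.9, 8.77 and 13.3 against 0.62, 8.59 and 0.406 CPM. Young replicate a and aged replicate 2 were nearly equal. Adcy9 passed the filter through the young group, where it is high, so its direction is not read. Pde4b, a phosphodiesterase induced by cyclic AMP, was at 292, 249 and 152 against 284, 239 and 169 CPM, with full overlap.

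Of 36 CREB and immediate early targets 28 were tested, 11 higher and 17 lower in aged cells, with a median of -0.16. None was called, and 1 lay higher (3.57%) and 2 lower (7.14%) in every aged library, beside 5.42% and 5.77% of all genes tested. Nr4a2 was at 103, 104 and 45.8 CPM in young and 95.4, 98.5 and 65.8 CPM in aged cells and overlapped. Nr4a1 had 0, 16 and 6 against 7, 20 and 11 counts and did not pass the filter. Vegfa, an angiogenic growth factor, was at 408, 343 and 346 against 262, 283 and 211 CPM, each aged value being lower (-0.54 ± 0.24, edgeR adjusted p = 0.902). Egr1, at 346, 244 and 366 against 221, 266 and 138 CPM, overlapped. Klf4 was at 2.97, 4.38 and 158 against 0.62, 5.15 and 20.7 CPM, and its difference (-2.57 ± 1.19) rested on young replicate b, since it turned to 1.22 without that library.

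Of 21 MuSC identity genes 19 were tested, 13 higher and 6 lower in aged cells, with members from -2.31 to 1.39 and a median of 0.10 (0.23 without young replicate b, 0.27 without aged replicate 2), and 2 lay higher (10.5%) and 1 lower (5.26%) in every aged library, beside 5.42% and 5.77% of all genes tested. Cd82, a tetraspanin of the MuSC surface, was at 31.7, 20 and 28.1 CPM in young and 96.3, 40.1 and 67.8 CPM in aged libraries. Its groups were separate (1.39 ± 0.43, edgeR adjusted p = 0.761). Sdc4, a heparan sulfate proteoglycan of these cells, was at 530.4, 498 and 609 against 842, 738 and 779 CPM and also did not overlap (0.53 ± 0.22). Tenm4 went the other way, at 37.6, 16.2 and 29.5 against 4.03, 6.87 and 5.69 CPM (-2.31 ± 0.67, edgeR adjusted p = 0.692), and overlaps C230038L03Rik. Cd34 had a log2 fold change of 1.14 ± 0.48 with overlap.

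Of 28 myogenic commitment genes only 10 passed the filter, 2 higher and 8 lower in aged cells (median -0.13). Ttn, the giant sarcomere protein titin, was at 484, 355 and 332 CPM in young and 229.6, 277 and 218 CPM in aged libraries. Every aged library was lower (-0.70 ± 0.25, edgeR adjusted p = 0.784). Myod1, at 486, 253 and 397 against 469, 313 and 336 CPM, and Myf5, at 68.3, 49 and 88.6 against 70.9, 80.8 and 37.8 CPM, overlapped. Notch signaling genes, 12 of 18 tested, had a median of -0.03, and 0 lay higher (0%) and 1 lower (8.33%) in every aged library, beside 5.42% and 5.77% of all genes tested.

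Cell cycle genes were well covered: all 24 S phase and all 24 G2/M genes were tested, with medians of 0.06 and 0.03. In S phase 2 lay higher (8.33%) and 1 lower (4.17%) in every aged library, beside 5.42% and 5.77% of all genes tested, and in G2/M 0 lay higher (0%) and 2 lower (8.33%) in every aged library. Mki67, a marker of proliferating cells, was at 2732, 2922 and 1426 CPM in young and 1297, 1561 and 1454 CPM in aged libraries. Young replicate b lay within the aged range, and the log2 fold change was -0.72 ± 0.26 (edgeR adjusted p = 0.784). The mitotic kinesin Cenpe was at 625, 760.2 and 529 against 429, 442 and 340.3 CPM, each aged value being lower (-0.66 ± 0.24). Mcm2, a subunit of the replicative helicase, was at 143, 142 and 94.6 against 285, 161 and 216 CPM, each aged value being higher (0.80 ± 0.29). EdgeR's adjusted p was 0.784 for Cenpe and 0.784 for Mcm2.

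The cyclins, CDKs and CDK inhibitors had a median of 0.02 over 16 of 20 genes, and 1 lay higher (6.25%) and 1 lower (6.25%) in every aged library, beside 5.42% and 5.77% of all genes tested. Cdkn2c, the CDK4 and CDK6 inhibitor p18, was higher in every aged library, at 8.91, 10.1 and 13.3 CPM in young and 21.7, 20 and 21.1 CPM in aged cells, and Rbl2, the pocket protein p130, lower, at 27.7, 40.3 and 29.5 against 16.7, 11.5 and 20.3 CPM. Ccnd1, cyclin D1, was at 2027, 1973 and 1968 CPM in young and 2143, 2101 and 1828 CPM in aged libraries, with an SE of 0.21 around a log2 fold change of 0.03. Ccnd2 was at 14.8, 19.5 and 53.2 against 83, 97.4 and 20.3 CPM, with aged replicate 3 inside the young range. Cdkn1a, the inhibitor p21, was at 135, 76.2 and 259 against 197, 219 and 188 CPM and overlapped. Cdkn2a, the senescence locus, had 0, 0 and 0 counts in young and 6, 0 and 3 counts in aged libraries, below the filter.

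Secreted factors linked to senescence were mostly too low to test, 12 of 28 passing the filter, with a median of 0.19 that stood at -0.10 without young replicate a, -0.11 with no filter and 0.46 with the olfactory covariate. Plau, urokinase, was at 53.4, 64.1 and 87.2 CPM in young and 162, 121 and 98.7 CPM in aged libraries. It was the 1 tested member with separate groups (8.33%, beside 5.42% of all genes tested higher in every aged library; 0.91 ± 0.32, edgeR adjusted p = 0.784). Of the 35 interferon response and MHC class I genes 8 were tested, with a median of 0.06 and no separate groups among the 8. Below the filter, Irf7, Ifit3, Oasl2 and Dhx58 were lower in every aged library, as Oasl2 at 15.8, 1.64 and 13.3 against 0.62, 0 and 1.62 CPM, with as few as 1 to 3 counts a young library for some. Without the filter, 1307 of 20815 genes were lower and 626 higher in every aged library. That median turned negative without aged replicate 1 (-0.75), without aged replicate 2 (-0.34) and with no filter (-0.46).

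The Hedgehog list had 22 of 30 genes tested, 13 higher and 9 lower in aged cells (median 0.18), and 1 lay higher (4.55%) and 2 lower (9.09%) in every aged library, beside 5.42% and 5.77% of all genes tested. Those lower were Sufu, an inhibitor of Gli proteins, at 26.7, 25.5 and 38.4 CPM in young and 16.7, 16 and 10.2 CPM in aged libraries, and the co-receptor Boc, at 33.6, 17 and 23.6 against 16.1, 8.59 and 2.03 CPM. Gli2, a transcription factor of the pathway, was at 6.93, 10.4 and 11.8 CPM in young and 21.4, 38.4 and 18.7 CPM in aged libraries. Every aged library was higher (1.42 ± 0.61, edgeR adjusted p = 0.899). The receptor Ptch1 was at 50.5, 27.7 and 5.91 against 27.3, 15.5 and 24.8 CPM and overlapped. Cilium genes had medians below that of all genes: -0.27 for 24 intraflagellar transport genes and -0.15 for 35 genes of the centriole and ciliary base. Among the former 2 lay higher (8.33%) and 3 lower (12.5%) in every aged library, and among the latter 0 lay higher (0%) and 2 lower (5.71%) in every aged library. Kifap3 and Kif3b, parts of the kinesin-2 motor that carries cargo into the cilium, were at 69.3, 67.9 and 59.1 against 38.1, 29.2 and 54 CPM and at 86.1, 95.1 and 97.5 against 63.2, 68.7 and 63 CPM, each lower in every aged library. The motor subunit genes Kif3a, at 17.8, 25.5 and 22.2 against 38.1, 27.5 and 16.7 CPM, and Kif3c overlapped, with log2 fold changes of 0.32 and 0.13. Ift57, an adaptor of the transport complex, went the other way, at 15.8, 20.5 and 23.6 against 38.7, 34.4 and 31.7 CPM.

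For FGF, TGF-beta and Wnt signaling, 24 of 37 genes had a median of 0.06, and 1 lay higher (4.17%) and 1 lower (4.17%) in every aged library, beside 5.42% and 5.77% of all genes tested. Tgfbr3, a TGF-beta co-receptor, was at 15.8, 34.2 and 11.8 CPM in young and 63.2, 47 and 40.6 CPM in aged libraries, without overlap. Lef1, a Wnt effector, was at 23.8, 14.8 and 7.39 against 0, 2.29 and 5.28 CPM, each aged value being lower. It passed the filter through the young group, where it is high, so its direction is not read. Spry4, an FGF antagonist, was at 80.2, 96.4 and 56.1 against 194, 137 and 79.2 CPM, with aged replicate 3 inside the young range. EdgeR's adjusted p for these 3 genes ran from 0.867 to 0.902. JAK-STAT and p38 genes had a median of -0.09 over 17 genes, and 0 lay higher (0%) and 1 lower (5.88%) in every aged library.

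Among metabolic lists, all 13 tested genes of polyamine and amino acid metabolism had a higher fitted mean in aged cells under TMM scaling, with a median of 0.39 beside 0.01 over all genes, but none was called and none had separate groups. Odc1, the first enzyme of polyamine synthesis and a CREB target, was at 4339, 5175 and 4635 CPM in young and 6659, 6901 and 4551 CPM in aged libraries, with aged replicate 3 inside the young range (0.36 ± 0.22). All 43 oxidative phosphorylation genes were tested, 28 higher and 15 lower in aged cells (median 0.10), and 5 lay higher (11.6%) and 0 lower (0%) in every aged library, beside 5.42% and 5.77% of all genes tested; Sdhd, described above, had the largest log2 fold change of the list. Glycolysis genes had a median of 0.01 over 20 genes, and 3 lay higher (15%) and 0 lower (0%) in every aged library. Pgam1, a glycolytic mutase, was at 687, 883 and 604 against 1183, 1095 and 990.2 CPM and the lactate transporter Slc16a1 at 77.2, 109 and 72.4 against 159.9, 123 and 152 CPM, both without overlap.

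Genes of stress and protein folding had a median of 0.19 over 29 genes, and 2 lay higher (6.9%) and 1 lower (3.45%) in every aged library, beside 5.42% and 5.77% of all genes tested. Chromatin regulators had a median of -0.25 over 34 genes, 12 higher and 22 lower in aged cells, and 1 lay higher (2.94%) and 5 lower (14.7%) in every aged library. Smarca4, the ATPase of the SWI/SNF remodeling complex, was at 459, 501 and 482 CPM in young and 429, 397 and 325 CPM in aged libraries, each aged value being lower. Hmga2, an architectural chromatin protein, was at 1243, 1034 and 1021 against 1020, 851 and 887 CPM, again lower in each aged library by a small margin. The deacetylase Hdac1 was the member higher in every aged library, at 56.4, 51.8 and 29.5 against 88.3, 76.2 and 64.2 CPM. Extracellular matrix genes had a median of -0.10 over 26 genes, and 0 lay higher (0%) and 1 lower (3.85%) in every aged library. Fn1, fibronectin, at 636, 704 and 191 against 503, 554 and 384 CPM, overlapped, as did the matrix protein Sparc at 2362, 1896 and 1477 against 2158, 2437 and 1392 CPM. Mmp14, a membrane protease, was at 45.5, 42.2 and 17.7 against 93.2, 45.8 and 42.6 CPM, with overlap. With the low-count filter and all 6 libraries, edgeR called 0 genes of these lists. With no filter it called Klf4 (adjusted p = 0.0109) and mt-Nd2 (adjusted p = 0.0163), both lower in aged cells and with overlapping groups, and the olfactory receptor genes Olfr263 (adjusted p = 0.00108) and Olfr638 (adjusted p = 0.0315), lower in every aged library. Over the alternatives run, the smallest and largest adjusted p were 0.0109 and 1 for Klf4 and 0.0163 and 1 for mt-Nd2.

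Ribosomal protein genes had a median of 0.07 over 76 genes, and 3 lay higher (3.95%) and 0 lower (0%) in every aged library, beside 5.42% and 5.77% of all genes tested. Rpl15 was at 215, 156 and 299.9 CPM in young and 295, 334 and 396 CPM in aged libraries, with overlap. Of the 15 mitochondrial genes tested 12 were lower in aged cells, with a median of -0.81. The complex I genes mt-Nd2, at 1699, 224 and 1216 against 254, 832 and 213 CPM, mt-Nd5 and mt-Nd6 overlapped. Young replicate a lay within the aged range in all 3, and for mt-Nd5, at 5501, 1299 and 2645 against 1026, 2737 and 1077 CPM, so did young replicate b. Histone genes had a median of -0.81 over 18 genes, with sums of 357, 203 and 1138 CPM in young and 402, 323 and 246 CPM in aged libraries. Olfactory receptor genes passed the filter in 4 of 1029 cases, and at such counts a gene passes through the group where it is high, so their direction is not read. Among them Olfr1564 was at 14.8, 9.31 and 25.1 against 4.03, 0 and 0 CPM.

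Some list medians moved by more than the spread between replicates and changed sign with a choice of fit. With the olfactory covariate the median was 0.18 for CREB and immediate early targets, 0.40 for myogenic commitment, -0.16 for G2/M, -0.19 for cyclic AMP signaling, -0.24 for Hedgehog and -0.24 for FGF, TGF-beta and Wnt signaling. With upper-quartile scaling the cyclin list stood at -0.02, and with at least 10 counts in every library the Hedgehog list at -0.14. Without young replicate b the CREB list stood at 0.17, without young replicate a the JAK-STAT and p38 list at 0.04, without aged replicate 2 the myogenic list at 0.14 and without aged replicate 3 the cyclin list at -0.10. The interferon and senescence lists are given above.

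Others moved and kept their sign. With the olfactory covariate the PGE2 list, at 0.46, stood at 0.20, the chromatin list at -0.02, the centriole list at -0.44, the matrix list at -0.48, the JAK-STAT and p38 list at -0.33 and glycolysis at 0.36. Without young replicate b glycolysis stood at 0.29, S phase at 0.14 and the matrix list at -0.33. Without young replicate a the intraflagellar transport list, at -0.27 with all libraries, stood at -0.01 and the FGF, TGF-beta and Wnt list at 0.23. The myogenic list stood at -0.56 with no filter and -0.40 without aged replicate 3. The stress list, at 0.19, stood at 0.03 to 0.07 without young replicate 2 or a or aged replicate 1 or 3. The polyamine list, at 0.39, stood at 0.30 in limma, 0.32 without young replicate a, 0.47 without aged replicate 2 and 0.27 without aged replicate 3. The cyclin list stood at 0.09 with no filter and at 0.16 and 0.14 without aged replicates 1 and 2.

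**Figure D4:**
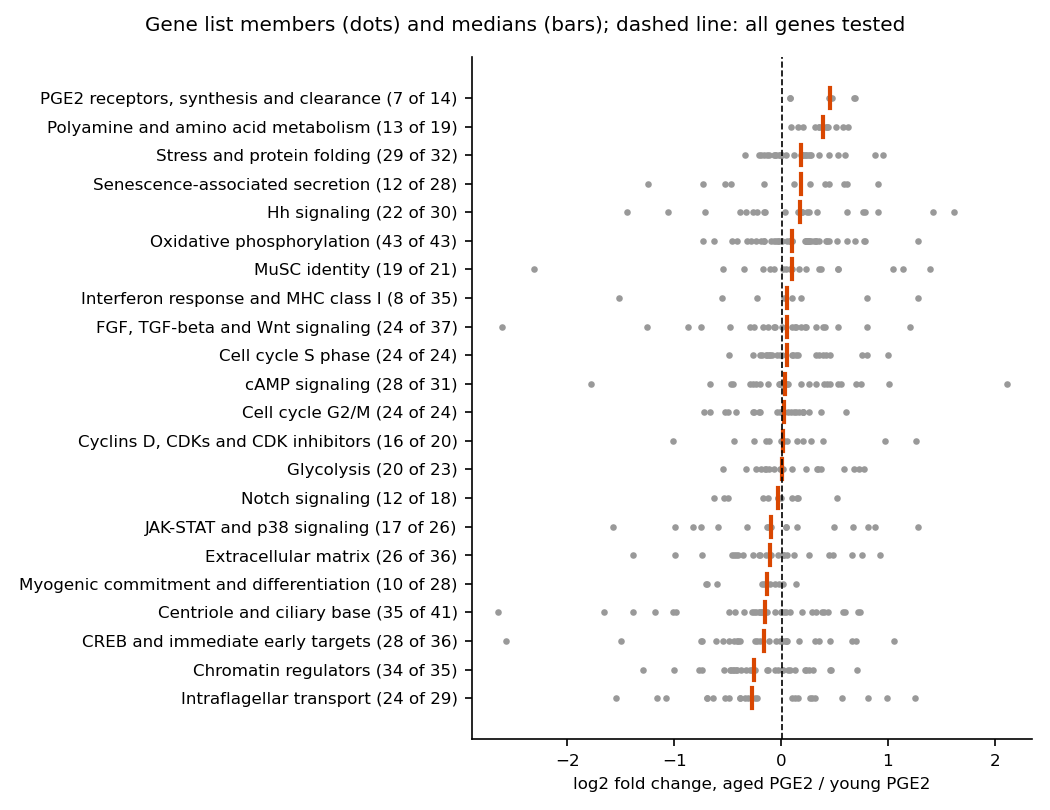
Log2 fold change, aged over young PGE2 cells, of the tested members of 22 gene lists (grey dots) with the list median (orange bar) and the median of all genes tested, 0.01 (dashed line); brackets give genes tested of genes in the table. Medians run from -0.27 for intraflagellar transport to 0.46 for PGE2 receptors, synthesis and clearance.

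The age difference under PGE2 was set against that in untreated cells in a fit of all 11 libraries. The test of the difference between them called 0 of 12619 genes (0%) in edgeR and 0 in DESeq2, with 746 at an unadjusted p under 0.05 in edgeR. Without untreated aged replicate 1 edgeR called 2 genes, the olfactory receptor gene Olfr263 (-11.60, adjusted p = 0.0322) and Wwox (-6.29, adjusted p = 0.0486), each named after its values were seen. That fit leaves untreated aged replicate 2 alone in its group and assumes that it varies like the other groups. Olfr263 stood at 40.7 CPM and Wwox at 79.8 CPM in that library, so both calls rest on it. The untreated comparison shares no library with the PGE2 comparison but has only 2 aged libraries. Of all 9630 genes, 8.95% were higher and 12.5% lower in both untreated aged libraries than in every untreated young one. Of the 522 genes higher in every aged PGE2 library, 60 (11.5%) were also higher and 63 (12.1%) were lower in untreated aged cells. Of the 556 lower genes, 94 (16.9%) were also lower and 36 (6.47%) were higher. Their median log2 fold change in untreated cells was 0.03 and -0.12, beside -0.03 for all tested genes.

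Tiam1, whose direction under PGE2 is not read, was at 41.2, 25.9 and 18.1 CPM in untreated young replicates 1 to 3. In untreated aged replicates 1 and 2 it was at 2.21 and 16.1 CPM (scaled over 11 libraries). The untreated groups were separate by a narrow margin, aged replicate 2 lying just under young replicate 3. Ece1 was at 51.4, 38.4 and 58.9 CPM in untreated young and 77.2 and 64.5 CPM in untreated aged libraries, again higher in aged cells. Vegfa was at 187, 116 and 154 against 81 and 108 CPM, lower in aged cells with and without PGE2. Meg3, at 9.27, 2.98 and 0 against 0 and 18.4 CPM, and Arhgef5, at 62.6, 58.9 and 53.9 against 127 and 26.9 CPM, overlapped in untreated cells. None of these 5 genes passed the test of a difference between settings, with adjusted p of 0.79 or more.

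Gli2 and Adcy3 differed in direction. Gli2 was at 6.42, 15.5 and 11.8 CPM in untreated young and 1.94 and 0 CPM in untreated aged libraries, but at 6.62, 10.6 and 11.1 CPM in young and 21.3, 37.5 and 18.7 CPM in aged PGE2 libraries on the same scale. Adcy3 was at 9.84, 16.1 and 9.89 against 0.83 and 4.61 CPM without PGE2 and at 0, 8.95 and 9.69 against 31.5, 11.8 and 39.9 CPM with it. The ages were separate in each setting and in opposite order. The test of the difference gave 4.59 ± 1.15 with an adjusted p of 0.638 for Gli2 and 4.44 ± 1.33 with 0.79 for Adcy3 (log2 ± SE, edgeR).

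**Figure D5:**
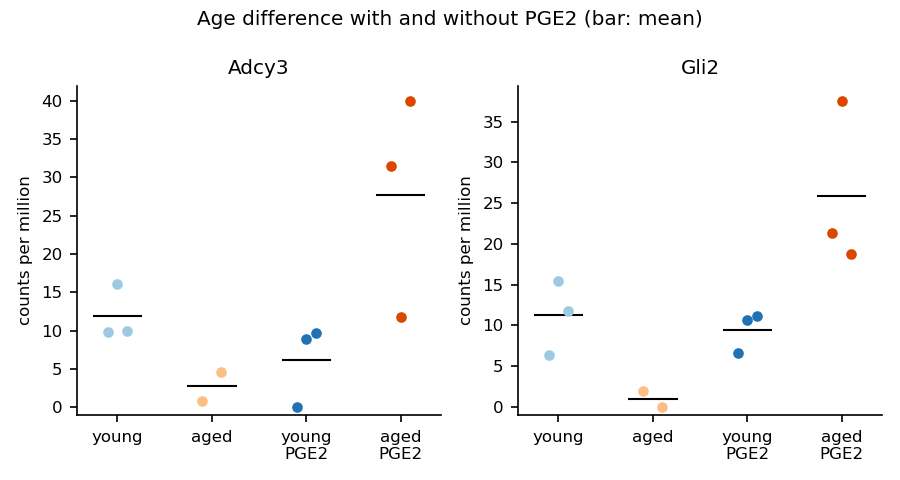
CPM of Adcy3 and Gli2 in all 11 libraries, 1 point a library, by age and treatment, with bars for group means. In both genes every aged library is below every young one without PGE2 and above every young one with it.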

How the data were processed

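The deposited table holds estimated counts per gene that the authors made from their reads; the labels name STAR, RSEM and the mm10 build. It lists 32976 genes in 11 libraries, of which 31980 matched a symbol in GENCODE M21 (GRCm38). Estimated counts were rounded to whole numbers (4.64% of values were not whole). Genes kept by edgeR's filter (minimum count 10, minimum total 15) were scaled by TMM and tested with the quasi-likelihood method of edgeR, p being adjusted over all genes tested after Benjamini and Hochberg. The test used the 6 PGE2 libraries alone; the difference from untreated cells used all 11. Group overlap was read from TMM-scaled CPM. Floors were set at 3 counts. Library measures were compared by exact permutation.

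Named genes were any with an adjusted p under 0.05, the 10 higher and 10 lower genes of smallest p among those with separate groups (predicted genes and pseudogenes left out), up to 4 members of each list with an unadjusted p under 0.05, and a set of anchor genes such as Pax7, Ptger4, Nr4a2 and Odc1. Members and lists were chosen with earlier results of these data known. A second deposited table was not used here. Alternatives were DESeq2, limma with quality weights, RLE and upper-quartile scaling, other filters, an 11-library fit, thinning to 693358 counts (seed 20), 2 covariates and leaving out each library. Library totals without a scaling factor and the olfactory share without each library were added after seeing the data. Strandedness and annotation release are not stated, so reads of overlapping genes cannot be told apart; this also touches Slc35a1, Xirp2, Mettl9, Ttn, Cd34, Ccnd1, Ccnd2, Gnas, Fn1, Itga7, Ptger4 and Rpl15. Tools were R 4.3.3, edgeR 4.0.16, DESeq2 1.42.0, limma 3.58.1, Python 3.11.15 and scipy 1.17.1.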

Additional observations from a re-analysis of the deposited data

Results flagged for a closer look

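Gli2 and Adcy3 were singled out because the aged libraries lay on opposite sides of the young ones with and without PGE2. The age difference under PGE2 minus that in untreated cells was 4.59 for Gli2 and 4.44 for Adcy3 on the log2 scale. Of the genes separate between ages under PGE2, 63 of 522 higher (12.1%) and 36 of 556 lower (6.47%) lay in the opposite order without it, beside 12.5% lower and 8.95% higher without PGE2 among all 9630 genes tested. Neither Gli2 nor Adcy3 passed the test of the difference between settings (edgeR adjusted p = 0.638 and 0.79). Untreated aged cells had 2 libraries, with Gli2 at 1.94 and 0 CPM, and the exons of Adcy3 overlap those of Cenpo.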

How the results depend on the processing

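Of 951 log2 fold changes of 62 named genes under 16 alternatives, 880 kept their direction and their side of the threshold, 18 passed an adjusted p of 0.05 in place of missing it and 53 changed sign. Of the list medians 308 stayed within the spread between replicates and 44 moved. DESeq2 called 13 genes, the fit with no low-count filter 65 (11 higher, 54 lower) of 20815, and an unadjusted p under 0.05 gave 521. With no filter the median of all genes shifted to -0.23 and 31 of the 65 genes were among those tested with the filter. EdgeR called 0 with the other scalings, filters, covariates and thinning to equal depth, limma called 0, and leaving out a library gave 0 to 7. For the difference from untreated cells, no filter gave 42 genes, and leaving out a library other than an untreated aged one gave 0. The median over all genes was 0.01 with all 11 libraries and ran from -0.03 to 0.17 without a library. Without an untreated aged library the lone one left is assumed to vary like the other groups. The cause was not tested.

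Genes higher in every aged library numbered 332 with at least 10 counts in every library, a filter that tests fewer genes, 626 with no filter and 850 to 1185 without a library. Genes lower in every aged library numbered 391 and 1307 with these filters and 864 to 1188 without a library; fewer libraries overlap less by construction. With all 11 libraries in one fit, 558 were higher and 494 lower, in the other order than 522 and 556 in the main analysis. With library totals alone, an alternative chosen after seeing the data, the counts were 600 and 475. The olfactory difference ran from -2.63 to -1.71 without a library, chosen likewise.

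The sign changed with the olfactory covariate for Klf4 (2.50), Spry4 (-0.14), mt-Nd6 (0.32), mt-Nd2 (1.28), mt-Nd5 (0.43), Pax7 (-0.25), Myf5 (0.08), Myod1 (0.60), Ccnd1 (-0.06), Ptger4 (-0.43), Nr4a2 (-0.63), Odc1 (-0.09) and Sparc (-0.26). It changed in limma for Pax7 (-0.07), Myf5 (0.07), Itga7 (-0.00) and Nr4a2 (-0.10), and with upper-quartile scaling for Pax7 (-0.03), Ccnd1 (-0.02) and Nr4a2 (-0.03). With no filter it changed for Myod1 (0.06) and Pde4b (0.05), with all 11 libraries for Myod1 (0.02) and Pde4b (0.01), after thinning for Nr4a2 (-0.04) and Pde4b (0.14), and with the Y-linked covariate for Itga7 (-0.05), Pde4b (0.02) and Fn1 (0.08). Without a library the range was -3.15 to 1.22 for Klf4, -0.20 to 0.24 for Pax7, -0.30 to 0.17 for Myf5, -0.24 to 0.23 for Myod1, -0.45 to 0.36 for Itga7, -0.01 to 0.10 for Ccnd1, -0.25 to 0.21 for Nr4a2, -0.22 to 0.21 for Pde4b, -0.76 to 0.35 for Ptch1, -0.48 to 0.22 for Fn1 and -0.09 to 0.27 for Sparc. The cause was not tested.

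No paired analysis was possible because number 2 is the only replicate number that a single column carries in both ages, number 1 being shared by 2 young columns. Depth limits genes near the floor, which was highest in young replicate b at 4.33 CPM.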

Other observations

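With no low-count filter, Dnase1, a secreted nuclease, was called higher in aged cells, with a mean of 149 CPM in aged and 3.6 CPM in young libraries; its highest library was aged replicate 1 and its groups overlapped. Preb, a regulator of transport from the endoplasmic reticulum, had means of 374 and 104 CPM with aged replicate 2 the highest, also with overlap. Gm42418, a non-coding gene, was at 28379, 11760 and 34384 CPM in young replicates 2, a and b and 15884, 8394 and 11469 CPM in aged replicates 1 to 3, with overlap between the ages. These genes were chosen after their values were seen.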
